A study of Rattus norvegicus with 6 samples.

Results

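Sirtuins are deacylases that consume NAD, and the genes described here are the 7 sirtuins of the rat (Sirt1 to Sirt7) together with 3 enzymes that build NAD (Nampt, Nmnat1 and Nmrk2). They were chosen by name from the table of expression values, and 10 of the 10 names were found among the 28293 genes that remained after rows of one symbol were summed. Myocardial tissue of 3 sham rats and of 3 rats with myocardial ischemia-reperfusion injury (MI/RI) was sequenced as stranded total RNA. All 6 rats were male and wild type. For MI/RI, the left anterior descending artery was tied off for 30 min and then reopened for 6 h, and the labels write the same 30 min and 6 h for the sham rats, which are labelled as sham. The study's methods give PBS into the tail vein for the sham and the MI/RI rats of its treatment experiment, and do not say whether the sequenced rats were among them. The part of the heart that was sampled is not given in the sources used here.

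NAD is made from nicotinamide by Nampt, the rate-limiting enzyme of the salvage route, whose product nicotinamide mononucleotide is turned into NAD by the Nmnat enzymes. Nicotinamide riboside kinases (Nmrk1, and Nmrk2 in muscle) make the same mononucleotide from nicotinamide riboside, so that they enter the route beside Nampt. Sirtuins split NAD each time they remove an acyl group from a protein, as PARP enzymes do when they attach ADP-ribose, and both release nicotinamide. Sirt1, Sirt6 and Sirt7 work in the nucleus, Sirt2 mainly in the cytosol, and Sirt3, Sirt4 and Sirt5 in mitochondria, which fill much of the heart muscle cell.

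The values are FPKM, which count fragments per kilobase of gene and are scaled by the authors to library size, so that levels of different genes can be set side by side. Groups were compared with limma on log2(FPKM + 0.1) across 10942 genes with a mean of at least 0.5 FPKM, with Benjamini-Hochberg adjustment over these genes and a threshold of 0.05. All 10 genes passed this filter, and each had a mean above 0.5 FPKM in both groups. In limma, 2 of the 10 were higher in MI/RI (Nmrk2 and Nampt) and 0 were lower, while 25.5% of all genes tested were higher and 7.36% were lower. Thus 2 of 10 higher was close to the share of all genes. Without the adjustment, at a limma p under 0.05, 3 genes were higher (Sirt5 in addition) and 1 gene was lower (Sirt1), beside 33.7% and 11.0% of all genes, so that these shares too were close to those of all genes.

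The scale of the libraries moved with the groups. Mitochondrially encoded mRNAs took 80.1% to 86.2% of the summed FPKM in sham rats and 61.8% to 71.5% in MI/RI rats, the relative depth ran from 1 to 1.18 in sham and 0.873 to 0.935 in MI/RI, and over all genes the median of the log2 fold changes was 0.29. When the FPKM were rescaled over the genes other than these mRNAs, that median moved to -0.46, and then 1 of the 10 genes was higher (Nmrk2) and 4 were lower (Sirt1, Sirt6, Sirt7 and Nmnat1), beside 7.25% and 26.1% of all genes. Cardiomyocyte markers were found for 6 of 7 names, and 5 of the 6 were higher in MI/RI. Their summed level was 3220 to 10500 FPKM in sham and 21200 to 30400 FPKM in MI/RI. Neutrophil and monocyte markers were higher for 4 of the 6 tested, with sums of 51.5 to 67.0 FPKM against 79.3 to 147 FPKM. Fibroblast markers were higher for 2 of 6 (265 to 344 FPKM against 376 to 403 FPKM) and endothelial markers for 0 of 6 in limma (1 higher and 1 lower without adjustment, 121 to 173 FPKM against 139 to 176 FPKM). After the rescaling, 4 cardiomyocyte and 2 neutrophil and monocyte markers were higher and 0 of either were lower in limma, while 0 fibroblast markers were higher and 2 were lower, and 0 endothelial markers were higher and 3 were lower. The 4 atrial markers summed to 8.22 to 72.1 FPKM in sham and 18.2 to 147 FPKM in MI/RI, and 133 FPKM of the last value was Myl7 in MI/RI replicate 3. The part of these shifts in the results was not tested. In bulk tissue a change in the number of cells of a type and a change in RNA per cell cannot be told apart.

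**Figure D1:**
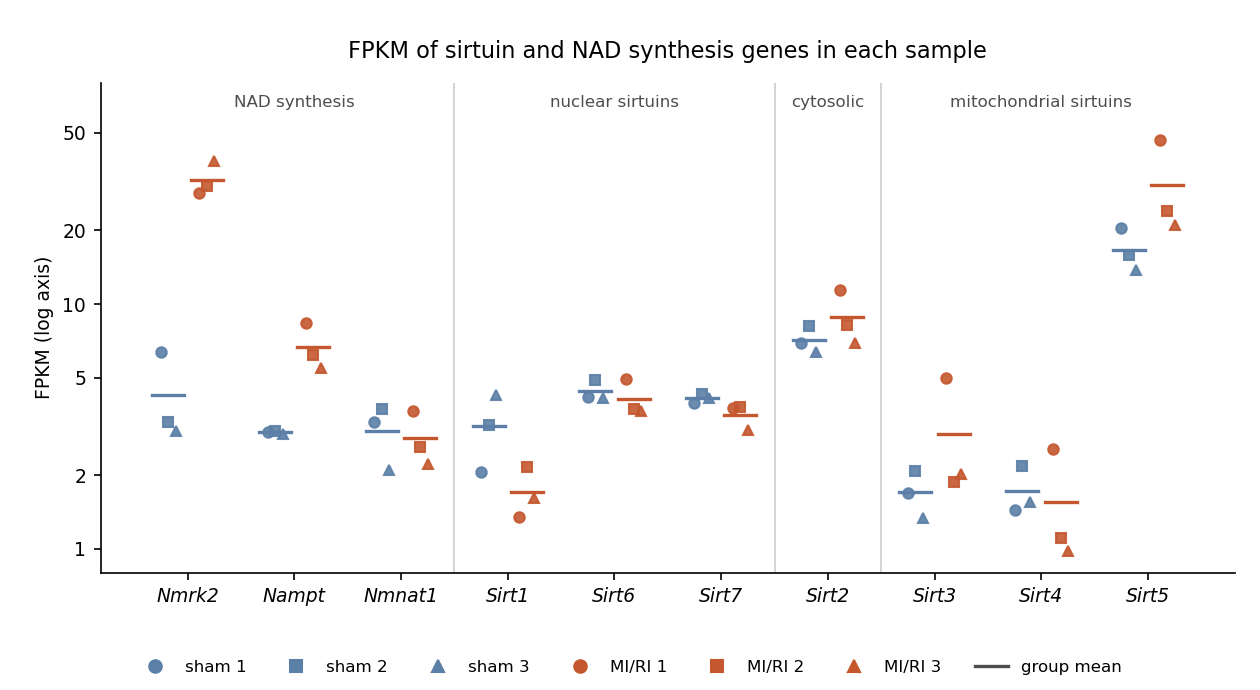
FPKM on a log axis for the 10 genes, grouped by the place where the protein works, with 1 point per rat (3 sham in blue, 3 MI/RI in red, marker shape for the replicate number) and a line at each group mean. Nmrk2, Nampt and Sirt5 lie higher in all 3 MI/RI rats than in any sham rat, and Sirt7 lies lower.

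Nmrk2 (ENSRNOG00000042897), the nicotinamide riboside kinase of striated muscle, changed most. It was at 6.38, 3.29 and 3.03 FPKM in sham and at 28.3, 30.2 and 38.2 FPKM in MI/RI (values are given in the order of replicates 1, 2 and 3 throughout). The lowest MI/RI rat was far above the highest sham rat, which was replicate 1. The mean was 4.23 ± 1.87 FPKM in sham and 32.3 ± 5.27 FPKM in MI/RI (SD, n = 3 each), a fold change of 7.84 and a log2 fold change of 2.97 ± 0.30 (SE, adjusted p = 0.00072 in limma, two-sided exact permutation p = 0.1, the smallest possible with 3 against 3). Only 0.557% of the genes tested had a larger log2 fold change. Without one rat at a time the log2 fold change of Nmrk2 was 2.78 to 3.30, with an adjusted p of 0.00032 to 0.012 in limma. After the rescaling without mitochondrial mRNAs it was 2.20 ± 0.28 (SE, limma adjusted p = 0.00026).

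Nmrk1, the kinase with the same substrate that most tissues use, was scarce and lay the other way. Its level was 0.537, 0.258 and 0.55 FPKM in sham and 0.25, 0.14 and 0.0989 FPKM in MI/RI, which is under the filter, so that it was not tested in the reported fit. All 3 MI/RI rats were below the sham rats, though MI/RI replicate 1 was only just below sham replicate 2. With no filter its log2 fold change was -1.05 ± 0.37 (SE, limma adjusted p = 0.11), which did not pass the threshold. Within a sample, log2(FPKM + 0.1) of Nmrk2 exceeded that of Nmrk1 by 2.95 ± 0.59 in sham and by 6.97 ± 0.62 in MI/RI (SD, n = 3). Such a difference inside a sample does not depend on how the library was scaled, apart from the pseudocount.

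The promoters of both kinases are shown since they are a pair of paralogs whose difference within a sample did not overlap between the groups. Each is the 250 bases before the gene start, written 5′ to 3′ on the strand of the gene, from RefSeq for the GRCr8 build, at chr7:9165317-9165566 on the plus strand for Nmrk2 and at chr1:225475812-225476061 on the plus strand for Nmrk1. These were searched on both strands for an AP-1 motif (TGANTCA), an E-box (CACGTG), a MEF2 core (TATTTTTA), an ERR half-site (AAGGTCA) and a GC box (GGGCGG), motifs that were chosen after some of the sequences had been read. Capitals mark a match, and positions count back from the gene start.
Nmrk2 promoter: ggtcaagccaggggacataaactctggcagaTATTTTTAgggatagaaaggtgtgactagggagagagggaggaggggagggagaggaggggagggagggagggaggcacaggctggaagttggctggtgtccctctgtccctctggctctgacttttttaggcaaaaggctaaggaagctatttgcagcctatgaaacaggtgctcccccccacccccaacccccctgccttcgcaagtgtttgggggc
Nmrk1 promoter: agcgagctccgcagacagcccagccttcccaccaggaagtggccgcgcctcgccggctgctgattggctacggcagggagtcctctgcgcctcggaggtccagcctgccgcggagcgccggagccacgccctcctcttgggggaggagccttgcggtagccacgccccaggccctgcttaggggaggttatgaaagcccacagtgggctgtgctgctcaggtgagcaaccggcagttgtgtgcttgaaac
The Nmrk2 window held the MEF2 core at -219, a motif bound by a factor of muscle genes, and 2.44% of 33469 RefSeq promoters held it. The Nmrk1 window held none of the 5 motifs. A match is a description of the letters and not a site shown to be in use.

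The values of Nmrk2 were also set against other muscle genes. Log2(FPKM + 0.1) of Nmrk2 minus the mean of the 6 cardiomyocyte markers was -6.61, -6.42 and -6.10 in sham and -6.21, -5.52 and -5.15 in MI/RI. The groups overlapped, since MI/RI replicate 1 was below sham replicate 3, and the means differed by 0.75. Relative to heart muscle genes, Nmrk2 was the only one of the 10 genes whose mean was higher in MI/RI. The other 9 were lower against these markers in every MI/RI rat than in any sham rat. Their means differed by 1.11 (Nampt) to 3.05 (Sirt1) on the log2 scale. The markers themselves had a median log2 fold change of 2.1, from 0.82 (Ryr2) to 3.79 (Actc1), against 0.29 over all genes. A gene near the median of all genes thus also falls against them. Of all genes tested, 4.2% had a larger log2 fold change than the marker Tnni3 (1.92), and 1.97% than Tnnt2 (2.28). The share of all genes that lay lower against the markers in every MI/RI rat was not counted. The 9 of 10 is therefore not read as a result about these genes. Of the skeletal muscle markers 2 were tested, and 0 were called in limma (1 lower without adjustment). Their sum was 1.51 to 3.36 FPKM in sham and 0.568 to 2 FPKM in MI/RI, and Myh4, a myosin of fast skeletal muscle, was listed at 0 in all 6 samples.

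Nampt (ENSRNOG00000009754) was also higher. It was at 2.99, 3.04 and 2.96 FPKM in the sham rats, which were nearly equal, and at 8.37, 6.20 and 5.49 FPKM in the MI/RI rats. The groups did not overlap. The mean rose from 3.0 ± 0.0419 to 6.69 ± 1.5 FPKM (SD, n = 3 each), with a fold change of 2.16 and a log2 fold change of 1.11 ± 0.23 (SE, limma adjusted p = 0.0074, exact permutation p = 0.1). In limma, 16.2% of genes had a larger log2 fold change. The call held without any one rat, with a log2 fold change of 0.94 to 1.24 and an adjusted p of 0.012 to 0.032 in limma. It was lost after the rescaling without mitochondrial mRNAs, where Nampt was at 3.32, 4.55 and 4.59 in sham and 5.97, 5.15 and 4.65 in MI/RI and the log2 fold change was 0.34 ± 0.28 (SE, limma adjusted p = 0.34).

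Nmnat1 (ENSRNOG00000015962), the nuclear enzyme of the last step, did not pass the test. It was at 3.29, 3.72 and 2.10 FPKM in sham and 3.67, 2.61 and 2.22 FPKM in MI/RI, so that the groups overlapped. Its log2 fold change was -0.09 ± 0.28 (SE, limma adjusted p = 0.83), with a 95% interval of -0.72 to 0.54. Under the rescaling without mitochondrial mRNAs the log2 fold change of Nmnat1 was -0.85 (limma adjusted p = 0.044, lower). Of its paralogs, Nmnat3, the mitochondrial form, was at 0.975, 1.22 and 0.619 FPKM in sham and 2.80, 1.57 and 1.21 FPKM in MI/RI. The log2 fold change of Nmnat3 was 0.88 ± 0.35 (SE, limma adjusted p = 0.081, and 0.047 with the replicate number as a block), against 0.16 (limma adjusted p = 0.76) after that rescaling and 0.56 to 1.13 (limma adjusted p of 0.051 to 0.26) without one rat at a time. Nmnat2, the form of the Golgi in neurons, stayed at or under 0.197 FPKM in all 6 samples and was not tested.

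Log2 differences were also taken between the NAD enzymes of one sample. Log2(FPKM + 0.1) of Nampt minus Nmnat1 was -0.13, -0.28 and 0.47 in sham and 1.17, 1.22 and 1.27 in MI/RI. Nampt and Nmnat1 were thus at like levels in sham, and Nampt stood above Nmnat1 by 1.22 ± 0.05 in MI/RI (SD, n = 3). Nampt minus Nmrk2 was -0.40 ± 0.58 in sham and -2.26 ± 0.51 in MI/RI (SD, n = 3). Nmrk2 was above Nampt in all 6 rats, although the 2 were nearly level in sham replicates 2 and 3 (-0.11 and -0.03). The place of Nmnat1 varied among the sham rats. In each MI/RI rat Nmrk2 was above Nampt and Nampt above Nmnat1.

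Among the sirtuins, 0 of 7 passed the threshold in limma in either direction (1 higher and 1 lower without adjustment), and the median log2 fold change of the 7 was -0.11. With the replicate number as a block, 1 was higher (Sirt5) and 1 was lower (Sirt1), where 28.2% and 8.18% of all genes were. Sirt1 (ENSRNOG00000051592), the nuclear deacetylase of histones and of transcription factors such as Foxo proteins, was at 2.06, 3.21 and 4.27 FPKM in sham and at 1.35, 2.16 and 1.61 FPKM in MI/RI. The groups overlapped because sham replicate 1 was below MI/RI replicate 2. The mean was 3.18 ± 1.11 FPKM against 1.71 ± 0.415 FPKM (SD, n = 3 each), and the log2 fold change was -0.82 ± 0.30 (SE, limma adjusted p = 0.06, exact permutation p = 0.2), with a 95% interval of -1.5 to -0.15. With the block the adjusted p of Sirt1 was 0.035 in limma. With sham replicate 1 left out its log2 fold change was -1.10 (limma adjusted p = 0.022), and it did not pass without any one of the other rats, with -0.59 (limma adjusted p = 0.23) without sham replicate 3 as the smallest change. In TPM it was -0.64 (limma adjusted p = 0.12), and after the rescaling without mitochondrial mRNAs it was -1.58 ± 0.38 (SE, limma adjusted p = 0.0077), with all 3 MI/RI rats below the sham rats.

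Sirt6 and Sirt7, the other nuclear sirtuins, varied little. Sirt6 (ENSRNOG00000006393), a histone deacetylase tied to DNA repair and glucose use, was at 4.17, 4.89 and 4.13 FPKM in sham and 4.92, 3.72 and 3.65 FPKM in MI/RI. Its groups overlapped, with a log2 fold change of -0.11 ± 0.22 (SE, limma adjusted p = 0.73). Sirt7 (ENSRNOG00000036683), the nucleolar sirtuin, was at 3.95, 4.28 and 4.12 FPKM in sham and 3.75, 3.81 and 3.05 FPKM in MI/RI. All 3 MI/RI rats were below the sham rats, yet the log2 fold change was -0.22 ± 0.21 (SE, limma adjusted p = 0.44). Of the 10 genes, 1 lay below and 3 lay above without overlap, and so did 13% and 37.2% of all genes. The 95% intervals were -0.60 to 0.39 for Sirt6 and -0.69 to 0.25 for Sirt7. After the rescaling without mitochondrial mRNAs both were lower, with log2 fold changes of -0.88 (limma adjusted p = 0.027) and -0.99 (limma adjusted p = 0.017).

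Sirt2 (ENSRNOG00000020102), the mainly cytosolic deacetylase of tubulin, was at 6.90, 8.14 and 6.37 FPKM in sham and 11.4, 8.19 and 6.93 FPKM in MI/RI. The groups overlapped, with a log2 fold change of 0.28 ± 0.25 (SE, limma adjusted p = 0.41) that was near the median of all genes.

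Sirt5 (ENSRNOG00000017866), which removes succinyl, malonyl and glutaryl groups in mitochondria, was the most abundant sirtuin in all 6 samples. It was at 20.4, 15.8 and 13.8 FPKM in sham and 46.6, 24.0 and 21.1 FPKM in MI/RI. The groups did not overlap, although MI/RI replicate 3 was only just above sham replicate 1. The mean was 16.7 ± 3.39 FPKM against 30.5 ± 13.9 FPKM (SD, n = 3 each), with a log2 fold change of 0.80 ± 0.32 (SE, limma adjusted p = 0.081, exact permutation p = 0.1). With the replicate number as a block the adjusted p of Sirt5 was 0.017 in limma. With MI/RI replicate 1 left out its log2 fold change was 0.45 (limma adjusted p = 0.21), and after the rescaling without mitochondrial mRNAs it was 0.02 ± 0.27 (SE, limma adjusted p = 0.97), where the groups overlapped.

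Sirt3 and Sirt4, the scarcest of the 10 genes in sham rats, each had 1 MI/RI rat apart from the others. Sirt3 (ENSRNOG00000013828), the main deacetylase of mitochondria, was at 1.69, 2.09 and 1.34 FPKM in sham and 4.98, 1.87 and 2.02 FPKM in MI/RI. Its log2 fold change was 0.64 ± 0.36 (SE, limma adjusted p = 0.20), and 0.20 without MI/RI replicate 1. Sirt4 (ENSRNOG00000001151), a mitochondrial sirtuin with little deacetylase activity, was at 1.44, 2.19 and 1.56 FPKM in sham and 2.56, 1.11 and 0.984 FPKM in MI/RI. Its log2 fold change was -0.25 ± 0.36 (SE, limma adjusted p = 0.62), and -0.66 without MI/RI replicate 1. MI/RI replicate 1 thus held the highest level of its group for Nampt, Nmnat1, Sirt2, Sirt3, Sirt4, Sirt5 and Sirt6, and the lowest for Nmrk2 and Sirt1.

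The promoters of Sirt1 and Sirt5 are shown as those of the sirtuins with the lowest and the highest log2 fold change. They are the 250 bases before the gene start at chr20:25305703-25305952 on the plus strand and at chr17:21543057-21543306 on the minus strand (RefSeq, GRCr8), with matches to the same motifs in capitals.
Sirt1 promoter: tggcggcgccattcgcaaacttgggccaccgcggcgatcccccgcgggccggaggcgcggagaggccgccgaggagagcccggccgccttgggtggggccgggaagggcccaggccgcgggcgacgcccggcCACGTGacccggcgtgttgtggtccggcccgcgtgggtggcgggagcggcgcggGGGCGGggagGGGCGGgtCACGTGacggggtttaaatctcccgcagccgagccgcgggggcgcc
Sirt5 promoter: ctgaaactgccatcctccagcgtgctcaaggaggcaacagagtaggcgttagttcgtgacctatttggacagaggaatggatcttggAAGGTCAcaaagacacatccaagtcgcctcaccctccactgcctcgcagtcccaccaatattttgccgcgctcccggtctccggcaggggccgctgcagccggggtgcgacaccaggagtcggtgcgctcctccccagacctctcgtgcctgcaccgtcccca
The Sirt1 window held the E-box at -118 and -46 and the GC box at -64 and -54, which 5.59% and 30.5% of the RefSeq promoters held. The Sirt5 window held the ERR half-site, a motif of nuclear receptors that act on genes of mitochondrial energy use, at -163, and 3.99% of promoters held it. Promoters were listed for 8 of the 10 genes. None of the 8 held the AP-1 motif, which 6.34% of all promoters held.

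**Figure D2:**
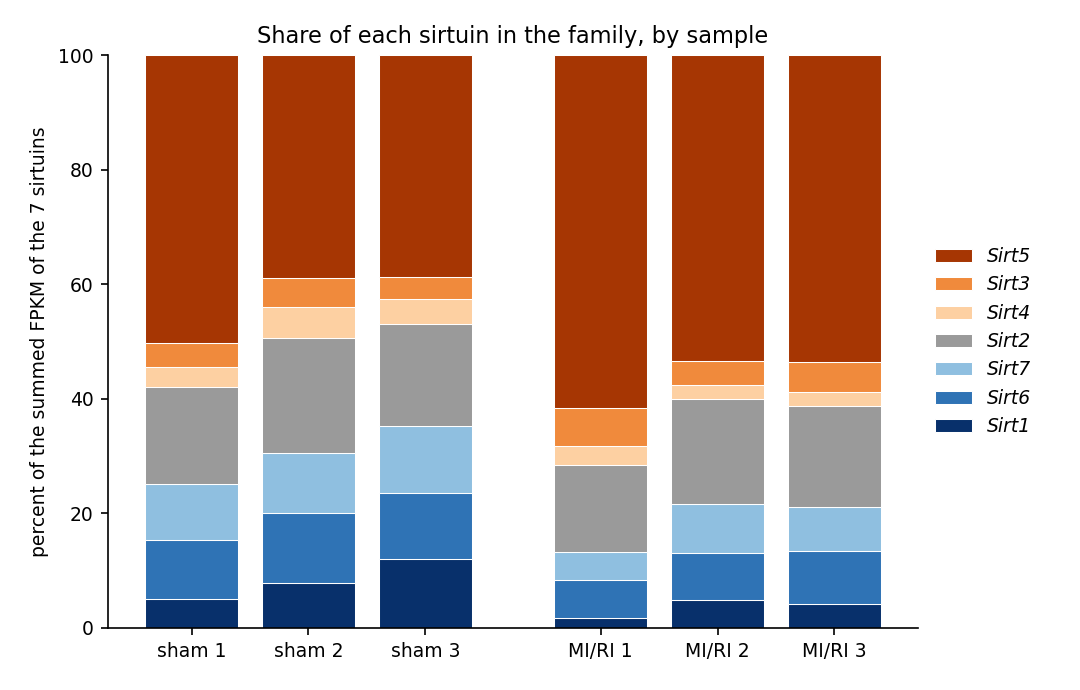
Share of each sirtuin in the summed FPKM of the 7, in percent, with 1 bar per rat (nuclear sirtuins in blue, Sirt2 in grey, mitochondrial sirtuins in orange to brown). Sirt5 takes 38.7% to 50.2% in the sham rats and 53.5% to 61.6% in the MI/RI rats, and the blue part is smaller in every MI/RI rat.

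The makeup of the sirtuin family was described by shares. The 7 sirtuins summed to 38.9 ± 2.90 FPKM in sham and 53.2 ± 19.5 FPKM in MI/RI (SD, n = 3), where replicate 1 reached 75.6 FPKM. Sirt5 made up 50.2%, 38.9% and 38.7% of that sum in sham and 61.6%, 53.5% and 53.6% in MI/RI. Sirt1 made up 5.06%, 7.90% and 12.0% in sham and 1.78%, 4.82% and 4.10% in MI/RI. The groups did not overlap for either share, though sham replicate 1 and MI/RI replicate 2 were close for Sirt1.

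Shares were also summed by the place where the proteins work. Sirt1, Sirt6 and Sirt7 together went from 30.3% ± 5.06 of the sum in sham to 18.7% ± 4.69 in MI/RI, and Sirt3, Sirt4 and Sirt5 together from 51.4% ± 5.78 to 64.3% ± 6.34 (SD, n = 3). Both sums were without overlap between the groups. Among the mitochondrial sirtuins, Sirt4 went the other way, with 4.45% ± 0.928 in sham and 2.79% ± 0.525 in MI/RI and no overlap. Sirt2 (18.3% ± 1.58 against 17.0% ± 1.66) and Sirt3 (4.36% ± 0.712 against 5.30% ± 1.22) overlapped between the groups. These shares do not depend on the scaling of a library, and no test was made of them beyond the overlap. How often such shares lie apart over all genes was not counted, and 49.3% of within-sample differences between 2 genes did. As parts of one sum, the other shares become smaller when that of Sirt5 grows. In FPKM, Sirt6 and Sirt7 had log2 fold changes of -0.11 and -0.22 (limma adjusted p = 0.73 and 0.44).

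**Figure D3:**
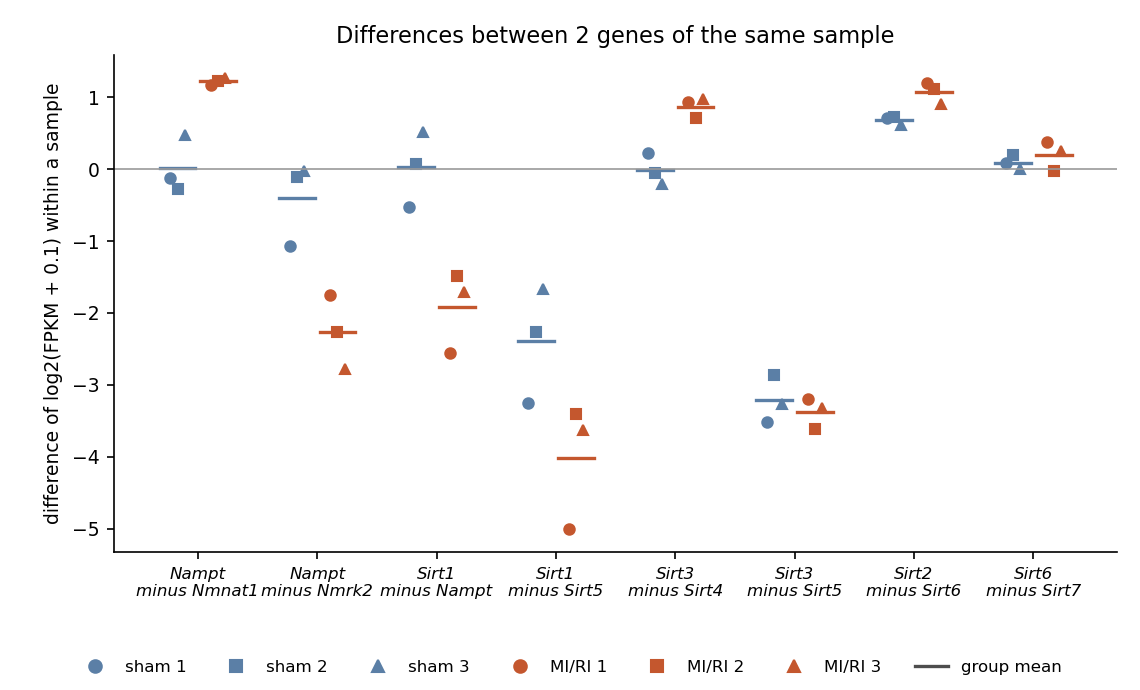
Difference of log2(FPKM + 0.1) between 2 genes of the same rat for 8 pairs, chosen after their values were seen, with 1 point per rat and a line at each group mean. Groups are apart for 6 pairs, and overlap for Sirt3 minus Sirt5 and Sirt6 minus Sirt7.

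All 45 pairs of the 10 genes were compared within samples, and in 29 of them (64.4%) the differences did not overlap between the groups. Over all 59858211 pairs of genes tested, the same held for 49.3%. All 9 pairs with Nmrk2 and 7 of the 9 pairs with Nampt were apart. Sirt1 minus Nampt, which compares a consumer of NAD with the enzyme of its salvage, was 0.02 ± 0.52 in sham and -1.91 ± 0.56 in MI/RI (SD, n = 3). Sirt1 minus Sirt5 was -2.39 ± 0.80 in sham and -4.02 ± 0.87 in MI/RI.

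Sirtuins of the same compartment did not all keep together. Sirt3 minus Sirt4 was 0.22, -0.06 and -0.21 in sham and 0.93, 0.71 and 0.97 in MI/RI, so that both were at like levels in sham while Sirt3 was above Sirt4 in each MI/RI rat. Sirt3 minus Sirt5 overlapped between the groups (-3.21 ± 0.33 and -3.38 ± 0.21), as did Sirt6 minus Sirt7 (0.09 ± 0.09 and 0.20 ± 0.21). Sirt2 minus Sirt6 was 0.68 ± 0.06 in sham and 1.07 ± 0.15 in MI/RI without overlap (all SD, n = 3).

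By mean level in sham, the order was Sirt5 (16.7 FPKM), Sirt2 (7.14), Sirt6 (4.4), Nmrk2 (4.23), Sirt7 (4.12), Sirt1 (3.18), Nmnat1 (3.04), Nampt (3.0), Sirt4 (1.73) and Sirt3 (1.71). Only 3 neighbours in that order had values without overlap over the 3 rats, which were Sirt5 and Sirt2, Sirt2 and Sirt6, and Nampt and Sirt4. In MI/RI the order was Nmrk2 (32.3 FPKM), Sirt5 (30.5), Sirt2 (8.85), Nampt (6.69), Sirt6 (4.10), Sirt7 (3.54), Sirt3 (2.96), Nmnat1 (2.84), Sirt1 (1.71) and Sirt4 (1.55). There, Sirt5 and Sirt2, Nampt and Sirt6, and Nmnat1 and Sirt1 did not overlap. Nmrk2 thus went from the middle of the order to its top, where its values overlapped those of Sirt5.

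**Figure D4:**
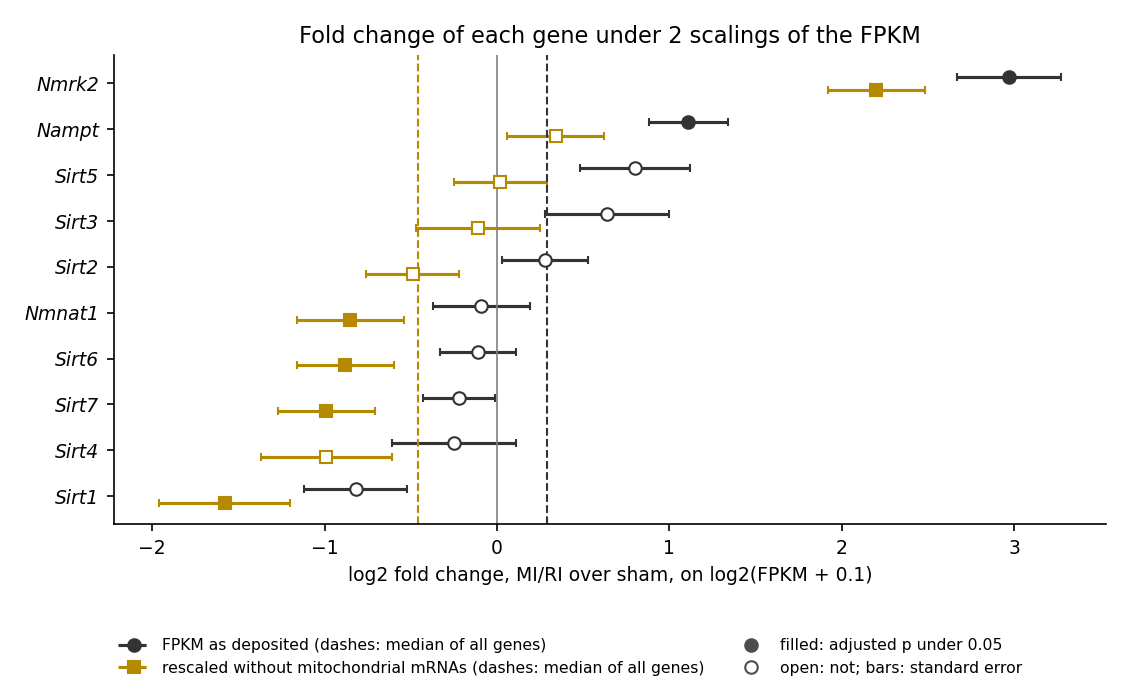
Log2 fold change of MI/RI over sham (x axis, on log2(FPKM + 0.1)) with its standard error for the 10 genes, from the FPKM as deposited (black circles) and after rescaling without the mitochondrial mRNAs (yellow squares). Dashed lines mark the median of all genes under each scaling (0.29 and -0.46), and filled symbols passed an adjusted p of 0.05 in limma. Nmrk2 alone is filled under both.

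The other genes of the pathway were read from the same fit. Over all genes tested, 25.5% were higher and 7.36% were lower there, with a median log2 fold change of 0.29. With the replicate block these shares were 28.2% and 8.18%. After the rescaling without mitochondrial mRNAs they were 7.25% and 26.1%, with a median of -0.46. Counts of the lists under each setting are to be read beside the shares of that setting. Of 13 other enzymes of NAD synthesis, 4 passed the filter, 1 was higher and 0 were lower (0 also without adjustment), with a median log2 fold change of 0.68. The higher one was Naprt, which starts NAD synthesis from nicotinic acid. It was at 4.54, 2.59 and 2.91 FPKM in sham and 9.24, 4.29 and 6.94 FPKM in MI/RI, with overlap, and its log2 fold change was 0.98 ± 0.32 (SE, limma adjusted p = 0.041). That call was lost without sham replicate 2 or 3 or MI/RI replicate 1 or 3 (limma adjusted p up to 0.14), and under the rescaling without mitochondrial mRNAs (log2 fold change 0.21, limma adjusted p = 0.60), centring on the median, quantile normalization, no filter and no trend. With the replicate block 2 were higher, as Nmnat3 joined. The rescaling without mitochondrial mRNAs gave 0 higher and 1 lower. The enzymes of the route from tryptophan (Tdo2, Ido1, Ido2, Kmo, Kynu, Haao and Qprt) were each below a mean of 0.5 FPKM and not tested.

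Among 4 genes that phosphorylate NAD or serve it in mitochondria, 1 was higher and 0 were lower in limma (1 without adjustment, Nadk), with a median of 0.07. Nnt, which passes hydride from NADH to NADP across the inner mitochondrial membrane, was at 18.4, 11.1 and 11.1 FPKM in sham and 69.8, 42.6 and 33.2 FPKM in MI/RI. The groups did not overlap, and the log2 fold change of Nnt was 1.81 ± 0.32 (SE, limma adjusted p = 0.0048). Slc25a51, the carrier of NAD into mitochondria, was listed under its older symbol Mcart1 and had a log2 fold change of 0.41 ± 0.28 (SE, limma adjusted p = 0.29). After the rescaling without mitochondrial mRNAs 1 of the list was higher (Nnt) and 2 were lower, beside 7.25% and 26.1% of all genes. The lower ones were Nadk (log2 fold change -1.28, limma adjusted p = 0.0043) and Nadk2 (-1.02, limma adjusted p = 0.046).

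Other consumers of NAD were tested for 7 of 8 names, of which 1 was higher and 0 were lower in limma (0 also without adjustment), with a median of 0.04. Parp1, the main poly(ADP-ribose) polymerase at DNA breaks, was at 2.80, 3.12 and 2.40 FPKM in sham and 15.1, 7.68 and 8.65 FPKM in MI/RI. Its groups did not overlap, and its log2 fold change was 1.82 ± 0.28 (SE, limma adjusted p = 0.0034). Parp1 minus Sirt1 within a sample was 0.43, -0.04 and -0.81 in sham and 3.39, 1.78 and 2.35 in MI/RI. Parp1 minus Nampt was -0.12 ± 0.16 in sham and 0.60 ± 0.27 in MI/RI (SD, n = 3), again without overlap. With the replicate block 2 of the consumers were higher, as Parp3 joined (log2 fold change 1.03, limma adjusted p = 0.052 without the block and 0.02 with it). After the rescaling without mitochondrial mRNAs the log2 fold change of Parp3 was 0.26 (limma adjusted p = 0.56), and without one rat at a time it was 0.58 to 1.39 (limma adjusted p of 0.017 to 0.13). Cd38, an NAD hydrolase of the cell surface, had a log2 fold change of -0.39 ± 0.30 (SE, limma adjusted p = 0.34), and of -1.17 ± 0.33 (SE, limma adjusted p = 0.017) after that rescaling. Under it 1 of the consumers was higher (Parp1) and 2 were lower (Cd38 and Parp2), beside 7.25% and 26.1% of all genes.

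Of 8 tested among 10 other PARP family genes, 1 was higher and 1 was lower in limma, with a median of -0.49. Without adjustment, at a limma p under 0.05, 1 was higher and 3 were lower, beside 33.7% and 11.0% of all genes. Tiparp, a mono-ADP-ribosyltransferase induced by the aryl hydrocarbon receptor, was at 0.786, 0.979 and 1.29 FPKM in sham and 5.70, 4.02 and 3.30 FPKM in MI/RI. The log2 fold change of Tiparp was 1.98 ± 0.28 (SE, limma adjusted p = 0.0028). Parp8, at 1.35, 2.75 and 1.89 FPKM in sham and 0.87, 0.959 and 0.726 FPKM in MI/RI, was lower by a log2 fold change of -1.09 ± 0.30 (SE, limma adjusted p = 0.02). The call of Parp8 was lost without sham replicate 2 or 3 or MI/RI replicate 3, or with no filter (limma adjusted p up to 0.068). The rescaling without mitochondrial mRNAs gave 1 higher and 6 lower among the 8 tested, beside 7.25% and 26.1% of all genes.

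A further list held genes that handle nicotinamide, its nucleotides or its methylated product. Of the 5 tested among 6 named, 0 were higher in limma, with or without adjustment, and 2 were lower, with a median of -0.43. Nnmt, which methylates nicotinamide and so takes it out of the salvage route, was at 2.02, 1.54 and 1.89 FPKM in sham and 0.688, 0.614 and 0.811 FPKM in MI/RI. Its groups did not overlap (log2 fold change -1.25 ± 0.25 SE, limma adjusted p = 0.0073). Aox1, which oxidises the methylated product, was at 0.962, 2.22 and 1.94 FPKM in sham and 0.251, 0.298 and 0.609 FPKM in MI/RI (log2 fold change -1.89 ± 0.40 SE, limma adjusted p = 0.0085). Both stayed lower under the rescaling without mitochondrial mRNAs and with the block.

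**Figure D5:**
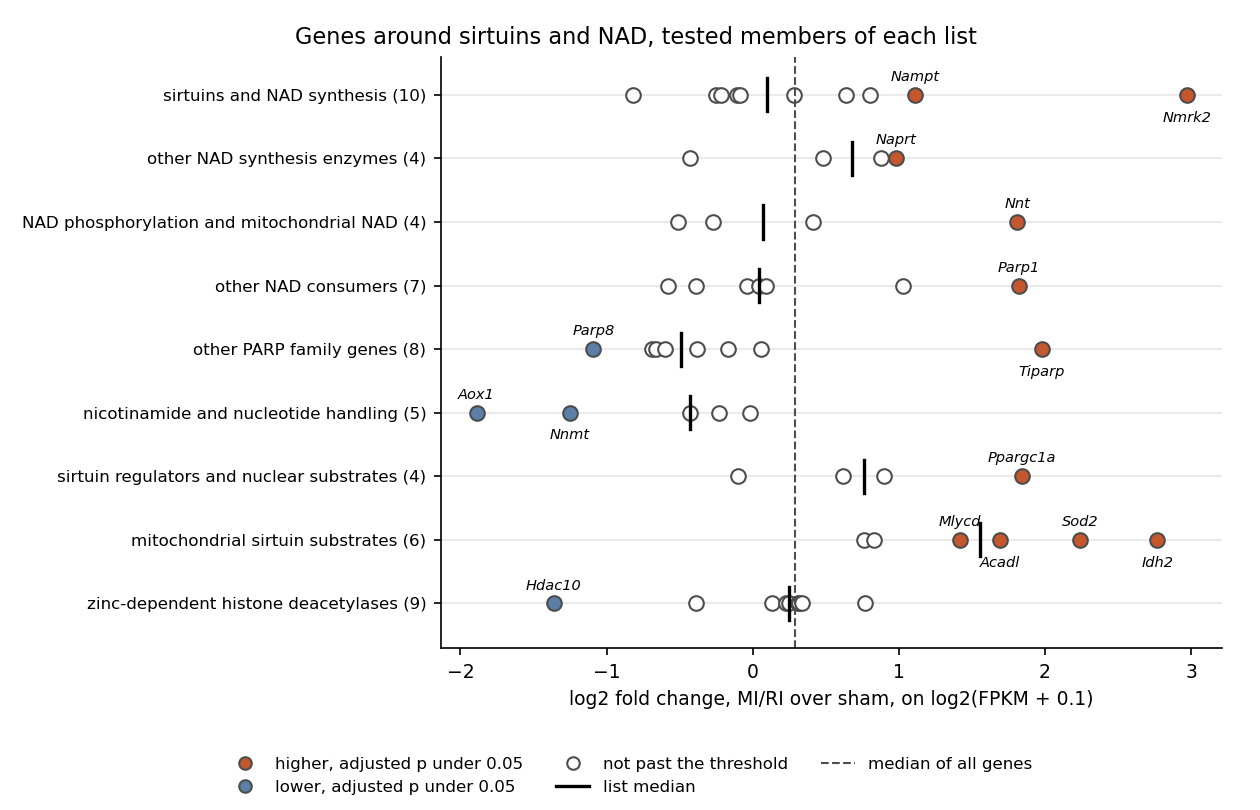
Log2 fold change of MI/RI over sham (x axis, on log2(FPKM + 0.1)) for the 10 genes and for the tested genes of 8 lists around them, 1 point per gene, with the list median as a black bar and the median of all genes (0.29) as a dashed line. Red and blue points passed an adjusted p of 0.05 in limma as higher or lower. The substrates of mitochondrial sirtuins have the highest list median (1.56) and the other PARP family genes the lowest (-0.49). The lists were chosen with earlier results of these data known, so the order of their medians is a description only.

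Regulators and nuclear substrates of sirtuins were tested for 4 of 6 names, and 1 was higher and 0 were lower in limma (0 also without adjustment), with a median log2 fold change of 0.76. Ppargc1a, the coactivator PGC-1α that Sirt1 deacetylates and that drives mitochondrial genes, was at 0.813, 1.05 and 0.568 FPKM in sham and 2.68, 3.80 and 2.88 FPKM in MI/RI. The groups did not overlap, with a log2 fold change of 1.84 ± 0.28 (SE, limma adjusted p = 0.0032). With the replicate block 2 were higher, as Foxo3, a transcription factor of stress response, joined (log2 fold change 0.90, limma adjusted p = 0.057 without the block and 0.047 with it). After the rescaling without mitochondrial mRNAs Foxo3 was at 0.18 (limma adjusted p = 0.71), and without one rat at a time its limma adjusted p was 0.056 to 0.21. Foxo1, whose groups overlapped, had a log2 fold change of 0.62 (limma adjusted p = 0.15) and of -0.11 (0.83) after that rescaling, and it passed without MI/RI rat 3 (limma adjusted p = 0.048), while its limma adjusted p was up to 0.41 without another rat. Under that rescaling 1 of the list was higher and 1 was lower, beside 7.25% and 26.1% of all genes. The lower one was Ccar2, an inhibitor of Sirt1 (log2 fold change -0.87, limma adjusted p = 0.034, against -0.10 and 0.77 in the reported fit).

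Substrates of the mitochondrial sirtuins were tested for 6 of 7 names, with a median log2 fold change of 1.56. In limma 4 were higher and 0 were lower (0 also without adjustment), beside 25.5% and 7.36% of all genes. With the filter at 5 FPKM, 4 of the same 6 were higher. Of all genes under that filter, 1892 of 3784 were higher, with a median log2 fold change of 0.66. Idh2, the mitochondrial isocitrate dehydrogenase that makes NADPH, was at 73.5, 30.9 and 23.4 FPKM in sham and 461, 188 and 195 FPKM in MI/RI. Its log2 fold change was 2.77 ± 0.47 (SE, limma adjusted p = 0.0041). Sod2, the manganese superoxide dismutase of mitochondria, was at 16.3, 13.4 and 9.62 FPKM in sham and 75.8, 54.9 and 53.9 FPKM in MI/RI (log2 fold change 2.24 ± 0.27 SE, limma adjusted p = 0.0015). Acadl, the long-chain acyl-CoA dehydrogenase, went from a mean of 166 ± 75 to 522 ± 163 FPKM (SD, n = 3, log2 fold change 1.69 ± 0.35 SE, limma adjusted p = 0.0077). Mlycd, malonyl-CoA decarboxylase, was named after its values were seen and was the fourth (log2 fold change 1.42 ± 0.43 SE, limma adjusted p = 0.029). After the rescaling without mitochondrial mRNAs 3 of the list were higher, beside 7.25% of all genes, and the call of Mlycd was lost (limma adjusted p = 0.14). It was also lost without sham rat 2 (limma adjusted p = 0.096), sham rat 3 (0.10) or MI/RI rat 1 (0.070), with log2 fold changes of 0.94 to 1.73 when any 1 rat was left out.

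The zinc-dependent histone deacetylases, which remove acetyl groups without NAD, were read beside the sirtuins. Of 9 tested among 11, 0 were higher in limma, with or without adjustment, and 1 was lower, with a median of 0.25 that was close to the median of all genes. Hdac10 was at 0.897, 2.89 and 2.44 FPKM in sham and 0.531, 0.685 and 0.805 FPKM in MI/RI (log2 fold change -1.36 ± 0.41 SE, limma adjusted p = 0.029). The call of Hdac10 was lost without sham replicate 2 or 3 or MI/RI replicate 1 or 2, or with no filter (limma adjusted p up to 0.11). The rescaling without mitochondrial mRNAs gave 0 higher and 2 lower among the 9 tested, beside 7.25% and 26.1% of all genes.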

How the data were processed

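RNA of myocardium from 6 rats (3 sham, 3 MI/RI) was measured, with FPKM values deposited by the authors as a single table. The submitters' processing notes name STAR and HTSeq. Versions, genome build, annotation and the total used for scaling are not given in the sources used here. Columns were assigned to samples by name, and rows of one symbol were summed. Log2(FPKM + 0.1) of genes with a mean of at least 0.5 FPKM was fitted with limma 3.58.1 in R 4.3.3 (eBayes with trend), and p-values were adjusted by Benjamini-Hochberg across 10942 genes. Fold changes on this scale understate those of low genes. The fit was also run on simulated data with few genes moved and no shift in library scale, so that run does not bear on the scaling. Single values were also compared by a two-sided exact permutation test of the log2 values, which cannot fall below 0.1 with 3 against 3. FPKM carry no counts, so the absolute depth is unknown. Relative depth was read from the steps of genes with a mean under 0.05 FPKM. Paralogs that share sequence are uncertain, as the counting is not described further.

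The labels number the rats of both groups from 1 to 3 without saying what the numbers share. Across genes, same-numbered rats deviated together from the means of their groups (correlations of 0.203, 0.117 and 0.118), although sham rat 3 and MI/RI rat 2 did so as much (0.12), and the other pairs of different numbers were at -0.185 to -0.0188, and a blocked fit on the number was added for this pairing. P-values measure the spread between these rats. The members and the gene lists were chosen with earlier results of these data known. Named genes are the 10 members, up to 4 genes past the threshold with the largest change in each list, the paralogs Nmrk1, Nmnat2 and Nmnat3, markers beside a result, and for Nmrk2 and Nampt the 3 genes with the most alike values. Some others were named after their values were seen: Mlycd, Parp3, Foxo1, Foxo3, Ccar2, Parp2, Cd38, Slc25a51, Nadk, Nadk2 and the enzymes of the tryptophan route. Alternatives were pseudocounts of 1 and 0.01, no filter or one at 5 FPKM, TPM, median centring, quantile normalization, rescaling over genes other than mitochondrial mRNAs, no trend, the replicate block, the highest row of each symbol, and leaving out each rat. Promoters are from RefSeq (GRCr8). Of the lists of regulators and of mitochondrial substrates, 1 gene each is not reported here, and it is left out of their counts and medians. Red blood cell markers (0 of 4 found by name) were not used here.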

Additional observations from a re-analysis of the deposited data

How the results depend on the processing

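Nmrk2 was called higher in MI/RI under all 17 alternatives. Nampt was called higher under 15 of the 16 alternatives that tested it, and was not after the rescaling without mitochondrial mRNAs. Of the 10 genes, 1 was called higher with a filter at 5 FPKM (where 3 were tested and Nampt was left out) and 1 after that rescaling. Called lower were 1 after median centring (Sirt1), 2 after quantile normalization (Sirt1 and Sirt7), 4 after that rescaling, and 1 with the replicate block (Sirt1), while leaving out 1 rat gave 0 to 1. The replicate block also added Sirt5 as higher, and changed no other call among the 10 genes. The log2 fold change turned in sign for Sirt2 (-0.25 after quantile normalization, -0.49 after that rescaling), Sirt3 (-0.11 after that rescaling), Sirt5 (-0.0047 after quantile normalization), Sirt6 (0.08 in TPM) and Nmnat1 (0.10 in TPM, and -0.32 to 0.07 when 1 rat was left out). No value with a turned sign was past the threshold. Over all genes, 2790 were higher and 805 lower (77.6% of the calls higher), against 793 and 2857 (21.7%) after that rescaling, 1441 and 1559 (48.0%) after quantile normalization, 2020 and 1554 (56.5%) after median centring, 3449 and 504 (87.3%) in TPM, 1892 and 166 (91.9%) with the filter at 5 FPKM, and 1528 to 2557 higher and 309 to 881 lower when 1 rat was left out. The cause of these shifts was not tested. A count was made for 14 other genes, namely the list genes past the threshold in the reported fit, and Nmnat3. For these, 204 of 231 values kept their side and direction, 25 lost the call, 2 gained it, and 0 turned in sign. Other genes named from the lists were not in this count. Among them, Foxo1 and Slc25a51 turned in sign after the rescaling without mitochondrial mRNAs (-0.11 and -0.32). Nadk, Nadk2, Cd38, Parp2 and Ccar2 were called lower there and not in the reported fit. The most variable list count was that of other PARP family genes called lower, from 0 to 6 (1 in the reported fit), and mitochondrial sirtuin substrates called higher ranged from 3 to 6 (4 in the reported fit).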

Other observations

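The genes whose log2 values were most alike to Nmrk2 over the 6 samples were Slc2a1 (Pearson r = 0.9994), the glucose transporter GLUT1, then Eif6 (0.9979) and Rnh1 (0.9979). Slc2a1 was at 0.981, 0.612 and 0.573 FPKM in sham and 3.33, 3.47 and 3.93 FPKM in MI/RI. For Nampt they were AABR07046707.1 (0.9984), which was at 1.46, 1.58 and 1.42 FPKM in sham and 6.36, 4.31 and 3.81 FPKM in MI/RI, Psma4 (0.9981), a proteasome subunit, and Crispld2 (0.9975). The samples share their 2 groups, so that a high r is common: 563 of 10932 genes were above 0.95 with Nmrk2 and 1083 with Nampt.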
